A study of Mus musculus with 15 samples.

Results

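The comparison was between the livers of 5 male C57BL/6J mice fed the CL diet (CL) and of 5 fed the standard chow CRF-1 (NC), which are 10 of the 15 livers of the series. The members were all samples titled as liver of the control diet or of the CL diet without β-cryptoxanthin, and the 5 livers of mice given the CL diet with β-cryptoxanthin were never a side of the comparison. Feeding began at 8 weeks of age and lasted 12 weeks. The CL diet, made to induce steatohepatitis with cholesterol and saturated fat, was mostly cocoa butter, at 60%, with sodium cholate, a bile salt, added at 0.5%, cholesterol at 1.25% and CRF-1 as the remaining 38.23%. The parts of cocoa butter, cholesterol, cholate and the smaller share of chow therefore cannot be told apart here. Total RNA of 1 snap-frozen liver was put on 1 GeneChip Mouse Genome 430 2.0 array, an Affymetrix array read from the 3′ end of the transcripts. Values are MAS5 signals, a linear brightness of each probe set, scaled so that all arrays shared a 75th percentile. Signals of 1 gene are compared between mice only, since probe sets differ in brightness at the same RNA level.

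Cholesterol in a hepatocyte has several fates that are set by transcription. Sterol in the membranes of the endoplasmic reticulum holds back SREBP2, the activator of cholesterol synthesis and uptake, and oxidised sterols activate LXR, the nuclear receptor that drives sterol export to bile and to lipoproteins. Bile acids made from cholesterol activate FXR, which lowers their own synthesis through the repressor SHP and through the gut hormone that acts on KLB. Resident Kupffer cells and monocytes that enter the tissue take up lipid and dead cells, and the macrophages that gather where fat and injury are found express genes such as Trem2, Gpnmb and Cd9.

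Correlations between arrays were taken on log2 signals of probe sets whose mean signal was at or above the median. The 5 NC arrays correlated with each other at a mean of 0.958 to 0.964 per array and 4 of the CL arrays at 0.953 to 0.958. The array of CL mouse 2 stood apart at 0.936, so results that rest on it are given with and without it. The deposited 75th percentiles were 41.5 to 52.7 in NC and 46.0 to 79.0 in CL (p = 0.0556 by a two-sided exact permutation test over all arrangements of 5 and 5 mice, adjusted p = 0.111 over 6 array measures). Where signals were left as deposited, the median difference over all genes was 0.24 on the log2 scale in place of -0.06. Differences in the text are on the scaled values. On deposited signals the medians of 25 of 65 gene lists turned from below to above 0, and of 10 after quantile normalization. Hepatocyte markers defined the tissue in both groups, with Alb, the gene of serum albumin, at signals of 9585 to 12256 in NC and 6212 to 11573 in CL. Markers of exocrine pancreas, muscle and red cell precursors, tissues and cells that a piece of liver could carry along, held no member that passed the test among 9, 8 and 4 measured. Of 6 adipose genes 1 rose, Fabp4, which macrophages and endothelium also express. Over all genes 6.84% passed the test, so no calls in lists this short say little.

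Of 18193 genes read by their brightest probe set, 648 were higher in CL (3.56% of those tested) and 596 lower (3.28%) at an adjusted p under 0.05 by limma. Together they were 1244 genes (6.84%), and 2082 of all 45037 probe sets passed (4.62%). Of the genes past the test 52.1% were higher, against 97.4% on deposited signals and 60.7% after quantile normalization, so the number of falls rests on the scaling. Over all 18193 genes, 790 were higher and 1198 lower without CL mouse 2, and 1050 higher and 28 lower on deposited signals. List counts in those 2 settings are to be read against these numbers, so a list without falls on deposited signals says little. Rises and falls were not of one kind. The called genes that rose had a median NC signal of 35.7 (22.9 over all genes), whereas those that fell had a median NC signal of 251. Over the 581 rises and 574 falls with both groups measured, the medians were 1.13 and -0.55 on the log2 scale. Dim signals vary more on that scale and end at the floor, and the part of this in the contrast was not tested. At least 2-fold differences with both groups measured numbered 334 among the rises and 48 among the falls, and at least 4-fold ones 72 and 5. Signals of all 5 mice of a group lay beyond all 5 of the other in 519 of the called rises and 425 of the called falls. Over all genes, called or not, such a gap between groups was found for 3.88% upwards and 3.48% downwards.

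**Figure D1:**
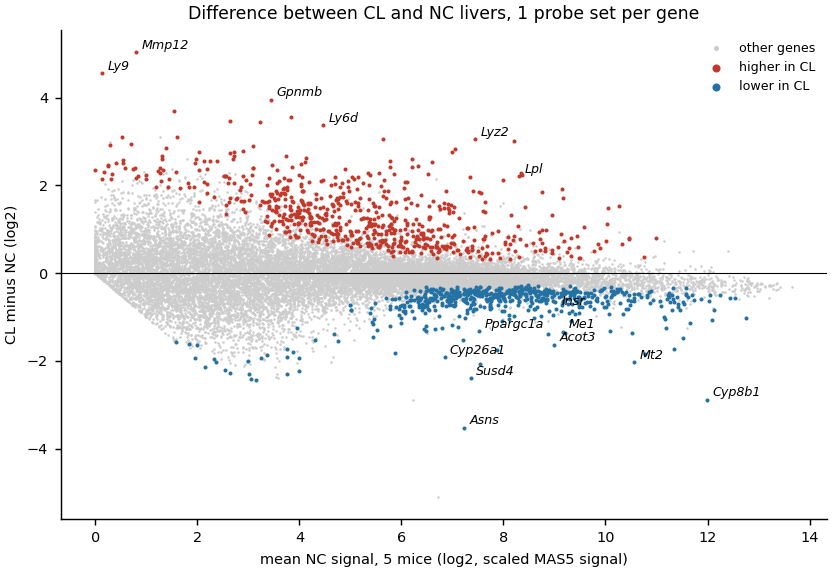
Difference between CL and NC on the log2 scale (y axis) against the mean log2 signal of NC (x axis) for each gene, with the genes past the test coloured and some named. The coloured genes above 0 lie mostly at lower NC signals than those below 0 and reach 5.03 for Mmp12 and 4.56 for Ly9, fitted values against NC signals near the floor, whereas Asns (-3.52) and Cyp8b1 (-2.90) lie farthest down among the coloured genes.

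The 15 largest rises among non-overlapping genes held many genes known from phagocytes and other leukocytes. Ly9, a receptor on lymphocytes and macrophages, was not above the array median in any NC mouse (the median of an array, used because no detection calls were at hand) and was above it in all 5 CL mice, which gives a rise of at least 2.09-fold. Bounds of the same kind were at least 2.13-fold for Tlr1, a receptor for bacterial lipopeptides, 2.24-fold for Cyth4, an exchange factor of leukocytes, and 5.17-fold for Calhm6, a channel protein of macrophages. Lyz2, the lysozyme of macrophages, rose by 3.05 ± 0.29 on the log2 scale (SE, 5 mice a group here and throughout, adjusted p = 2.16e-05), and the neighbouring Lyz1, whose transcript is closely alike, by 3.01 ± 0.27. The other genes of this kind were Gpnmb (3.95), Ubd (3.55), which encodes a ubiquitin-like protein induced by cytokines, Cd48 (3.46), a leukocyte surface protein, the interferon-related Ifi27l2b (3.45), Ly6d (3.37), Lgals3 (3.06), which encodes galectin-3, Cd74 (2.84), H2-Eb1 (2.76) and Hcls1 (2.76), a signalling protein of blood cells. In NC, Ubd, Ifi27l2b and Hcls1 were above the array median in 2 of 5 mice, Cd48 in 1 and Gpnmb in 3.

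The largest falls were in enzymes and in proteins of other kinds. Asns, which makes asparagine, fell by 3.52 ± 0.81 on the log2 scale (adjusted p = 0.0178), the largest fall past the test. Its signals were 149.8, 281, 68.6, 359 and 72.8 in NC mice 1 to 5 and 9.82, 63.1, 2.18, 29.8 and 9.37 in CL mice 1 to 5, in the order of the replicate numbers, which is kept for every gene. The groups did not overlap, but NC mice 2 and 4 were several times above NC mice 3 and 5, and only 2 CL mice were above the array median. Without NC mouse 2 the adjusted p of Asns was 0.0531 and without NC mouse 4 it was 0.0511. Atf4, its usual activator, differed by -0.18 ± 0.17 (adjusted p = 0.676). Of the 20 measured ATF4 targets only Asns fell and only Atf3 rose, near the shares of 3.28% and 3.56% over all genes. Atf3, itself a stress factor, rose by 2.01 ± 0.52 (adjusted p = 0.0338), a call lost when any of 6 single mice was left out (adjusted p up to 0.0984). Trib3 (0.07 ± 0.20, adjusted p = 0.913), a target of the same pathway, and Fgf21 (0.45 ± 0.34, adjusted p = 0.576), the hormone it induces, did not pass the test.

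Other large falls were in Susd4 (-2.40 ± 0.33), a complement inhibitor, Serpinb1a (-1.76 ± 0.31), an inhibitor of neutrophil proteases, Acot3 (-1.64 ± 0.31), a peroxisomal thioesterase, Cyp4a31 (-1.40 ± 0.24), a fatty acid hydroxylase of the P450 family, Me1 (-1.35 ± 0.15), the cytosolic malic enzyme that supplies NADPH, and Gpr135 (-1.46 ± 0.30), an orphan receptor. Slc13a2, a citrate transporter, fell by 1.55 ± 0.42, a call kept without CL mouse 2 and lost in each of the other 9 fits that left out a mouse. Ttll6, a tubulin-modifying enzyme, was above the array median in all NC mice and in no CL mouse, which gives a fall of at least 1.31-fold. Susd4, Serpinb1a, Acot3, Me1, Cyp4a31 and Gpr135 fell in all 10 fits that left out 1 mouse.

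Genes of cholesterol synthesis fell together. Of 17 measured genes 9 fell and 0 rose, all 17 had a difference below 0, and the median was -0.81 on the log2 scale against -0.06 over all genes. On deposited signals the median stayed below 0 at -0.50, with 2 members past the test. With the mean over all probe sets of a gene the median was -0.64, with 6 members past the test. Hsd17b7, which reduces a sterol ketone late in the pathway, had signals of 270.3, 250.4, 298, 298 and 273 in NC and 91, 161, 160.0, 165 and 115 in CL. No CL mouse reached the lowest NC mouse, and the difference was -1.04 ± 0.14 (adjusted p = 0.000423). Msmo1, which removes methyl groups from lanosterol products, had signals of 104, 95.8, 260.0, 157 and 176 in NC and 59.3, 90.8, 61.9, 22.4 and 48.1 in CL, and fell by 1.53 ± 0.31 (adjusted p = 0.00833). The highest CL mouse, mouse 2, lay just below the lowest NC mouse, also mouse 2.

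The remaining members past the test ran from the start of the isoprenoid branch to the last steps. They were Idi1 (-1.02 ± 0.25) and Fdps (-1.21 ± 0.23), which build the isoprenoid units, Fdft1 (-1.03 ± 0.16), which makes squalene, Cyp51 (-1.15 ± 0.21), the lanosterol demethylase, Tm7sf2 (-0.97 ± 0.15), a sterol reductase, Sc5d (-0.45 ± 0.12), a desaturase, and Dhcr7 (-0.81 ± 0.21), the final reductase. Fdps, Fdft1, Cyp51, Tm7sf2, Hsd17b7 and Msmo1 passed the test in all 10 fits that left out 1 mouse, whereas Idi1, Sc5d and Dhcr7 each lost it in 5 to 8 of them, with adjusted p up to 0.113. Hmgcs1, the synthase at the head of the pathway, differed by -0.59 ± 0.17 (adjusted p = 0.0576, and 0.0148 without NC mouse 2). Sqle, squalene epoxidase, differed by -1.71 ± 0.49 (adjusted p = 0.0592, and 0.0322 and 0.0435 without NC mouse 2 and CL mouse 1) and was above the array median in 1 CL mouse only.

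The genes around SREBP2 moved in part. Of 10 measured, 3 fell and none rose, with a median of -0.20. On deposited signals 0 fell and 1 rose with a median of 0.12, and without CL mouse 2 or after quantile normalization 2 fell and 1 rose. Scap, the escort that carries SREBP to the Golgi, fell by 0.72 ± 0.12 (adjusted p = 0.00176). Insig1, which retains that escort and is itself induced by SREBP, had signals of 233, 186, 412, 211 and 270.0 in NC and 235, 118, 119, 99 and 155 in CL. CL mouse 1 stayed within the NC range while the other four lay below it, and the difference of -0.87 ± 0.22 (adjusted p = 0.0304) was not past the test without NC mouse 1, 3 or 5 or CL mouse 3 or 4. Stard4, a sterol carrier protein, fell by 0.84 ± 0.23 (adjusted p = 0.0447), a call lost in 6 of the 10 fits without 1 mouse (adjusted p up to 0.124).

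LXR targets rose. Of 12 measured, 6 rose and none fell, with a median difference of 0.53. Abcg5, a subunit of the transporter that moves cholesterol into bile, had signals of 381, 592, 414, 446 and 368 in NC and 679.9, 1081, 1071, 717 and 849 in CL. All CL mice lay above all NC mice, and the rise was 0.99 ± 0.15 (adjusted p = 0.000864). Its partner Abcg8 rose less, by 0.55 ± 0.15 (adjusted p = 0.042), with groups that overlapped and a call lost in 7 of the 10 fits without 1 mouse (adjusted p up to 0.115).

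Pltp, which transfers phospholipid between lipoproteins, had signals of 148, 189, 295, 215 and 175 in NC and 618, 415, 481, 519 and 614 in CL, a rise of 1.40 ± 0.18 (adjusted p = 0.000229). Lpl, the lipoprotein lipase that is silent in most adult hepatocytes and is made by macrophages, had signals of 333, 404, 270.5, 266 and 327 in NC and 1753, 1121, 1167, 1534 and 1870.0 in CL, a rise of 2.20 ± 0.21 (adjusted p = 2.39e-05). Both genes were higher in every CL mouse than in any NC mouse, and Lpl was higher in CL mice 1, 4 and 5 than in mice 2 and 3. Abcg1, an exporter of cholesterol in macrophages, rose by 1.15 ± 0.14 and Srebf1, the activator of fatty acid synthesis, by 0.83 ± 0.18. Abca1, which loads cholesterol onto apolipoprotein A-I and is also an LXR target, differed by 0.13 ± 0.11 (adjusted p = 0.65).

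Single CL mice differed widely in bile acid genes. Cyp7a1, the rate-limiting enzyme of the classical route, had signals of 609, 867, 890.2, 919 and 531 in NC and 148, 1086, 451, 123 and 207 in CL. CL mice 1, 3, 4 and 5 lay below all NC mice and CL mouse 2 above all of them, so the difference of -1.39 ± 0.44 did not pass the test (adjusted p = 0.0855). Without CL mouse 2 it was -1.88 (adjusted p = 0.00177). Cyp8b1, the hydroxylase that commits the pathway to cholic acid, had signals of 4479.8, 4742, 3719.8, 4058 and 3453 in NC and 218, 3382, 846, 376 and 206 in CL. All CL mice lay below all NC mice and the fall was -2.90 ± 0.56 (adjusted p = 0.0056), yet CL mouse 2 came close to the lowest NC mouse while mice 1, 4 and 5 were far below it.

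Cyp7b1, the hydroxylase of the alternative route, had signals of 3577, 3906, 2689, 3629.6 and 2639 in NC and 1052, 4015, 1670.2, 1274 and 802 in CL, with CL mouse 2 above every NC mouse and the other four below. The difference was -1.13 ± 0.31 (adjusted p = 0.0494), a call that held without CL mouse 2 and was lost in each of the other 9 fits without 1 mouse. Cyp2c70, which makes the muricholic acids of mice, had signals of 1429, 1955, 1567, 1213 and 1032 in NC and 2519, 3260.4, 2279, 2005 and 2144 in CL and rose by 0.78 ± 0.16 (adjusted p = 0.0102). It ran against the other hydroxylases, higher in all 5 CL mice than in any NC mouse. Cyp27a1, the mitochondrial sterol hydroxylase, differed by -0.19 ± 0.14 (adjusted p = 0.556), and Slc27a5, the liver bile acid ligase, by -0.43 ± 0.13 (adjusted p = 0.0624, and 0.00691 without CL mouse 2). Over all 15 measured genes of synthesis 2 fell and 1 rose, and 4 fell and 1 rose without CL mouse 2. The median was -0.15 on scaled and 0.16 on deposited signals.

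Of 10 receptor and feedback genes of bile acids 2 fell and none rose, whereas 3 fell and 1 rose without CL mouse 2. Of 16 transporters 1 fell and none rose, near the 6.84% past the test over all genes, whereas 2 fell and 3 rose without that mouse. On deposited signals, where 28 of 18193 genes fell, neither list held a fall and each held 1 rise. With the mean over all probe sets of a gene, no receptor or feedback gene passed the test, Klb included, and 1 transporter fell. Nr0b2, which encodes SHP, differed by 0.88 ± 0.29 (adjusted p = 0.1), and by 1.08 without CL mouse 2 (adjusted p = 0.0228). Abcb11, the bile salt export pump and an FXR target, differed by 0.56 ± 0.17 (adjusted p = 0.0782), and by 0.69 without CL mouse 2 (adjusted p = 0.0133). Slc51b, a basolateral exporter of bile acids, was above the array median in no NC mouse and in 4 CL mice, all but mouse 2, and did not pass the test (adjusted p = 0.152, and 0.0139 without CL mouse 2). Klb fell by 0.64 ± 0.11 (adjusted p = 0.00176) and held in every fit without 1 mouse. Abcc3, another basolateral exporter, fell by 0.50 ± 0.12 (adjusted p = 0.0276), a call lost in 5 of those fits (adjusted p up to 0.0768).

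**Figure D2:**
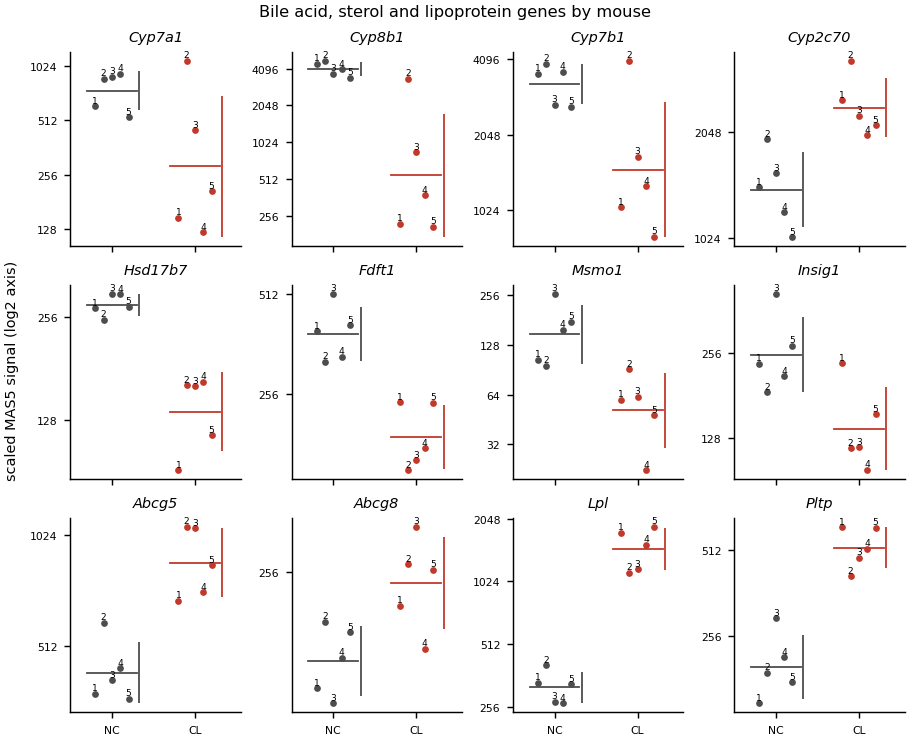
Scaled signals of sterol and bile acid genes in each mouse (log2 axis), with dots numbered by replicate, a line at the mean of the log2 signals and a bar of 1 SD to each side. CL mouse 2 lies above the NC mice for Cyp7a1 and Cyp7b1, whereas Abcg5 and Lpl are higher and Hsd17b7 lower in all CL mice than in any NC mouse.

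Macrophage genes rose in all CL mice. Of 17 measured macrophage and monocyte markers 15 rose and none fell, and 14 did not overlap between groups (3.88% upwards over all genes). In bulk tissue more cells of a type and more RNA per cell cannot be told apart. The mean of the list stood at 1.95, 1.58, 1.92, 2.39 and 2.05 above NC in CL mice 1 to 5 on the log2 scale, while NC mice ranged from -0.57 to 0.32. The signals of Lyz2 were 102, 249.7, 183, 204 and 168 in NC and 1579.9, 1226, 1370.0, 1647 and 1451 in CL, with every CL mouse far above every NC mouse. Csf1r, the receptor that macrophages need to survive, rose by 1.32 ± 0.20, Cd68, a lysosomal glycoprotein, by 2.15 ± 0.30, and Adgre1, which encodes F4/80, by 1.11 ± 0.21. C1qa, a complement chain made by macrophages, rose by 1.85 ± 0.21. Ccr2, the receptor that brings monocytes into tissue, was above the array median in all CL mice and no NC mouse, a rise of at least 3.39-fold.

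Receptors and oxidase subunits of phagocytes rose with them. Of 17 measured Fc receptor and phagocyte signalling genes 15 rose, among them Tyrobp (2.25 ± 0.28), the adaptor of several phagocyte receptors, and of 17 Toll-like receptor genes 7 rose, among them Ly86 (2.29 ± 0.23) and Tlr2 (1.89 ± 0.28). Of 8 measured NADPH oxidase subunits 5 rose. With the mean over all probe sets of a gene, 12 of the Fc receptor and phagocyte signalling genes and 4 of the oxidase subunits rose. Cyba, the membrane subunit shared by several oxidases, had signals of 43.4, 63.6, 66.1, 62.3 and 43.5 in NC and 274, 294, 314, 327 and 270.3 in CL. The CL mice were close together and all above NC, a rise of 2.43 ± 0.23 (adjusted p = 2.16e-05). Cybb, its partner in phagocytes, rose by 2.09 ± 0.24, and the cytosolic subunits Ncf1, Ncf4 and Rac2 rose by 1.66 ± 0.21, 1.38 ± 0.33 and 1.49 ± 0.28. The call of Ncf4 was lost without NC mouse 2 or CL mouse 4 or 5 (adjusted p up to 0.0655). Nox4, an oxidase of hepatocytes and stellate cells, differed by -0.12 ± 0.16 (adjusted p = 0.79).

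MHC class II genes, which present peptides to helper T cells, rose as far as the macrophage markers. Of 10 measured, 8 rose, and the median difference was 2.09. Cd74, the invariant chain, had signals of 110.2, 123, 129.9, 153 and 150.0 in NC and 1102, 571, 916, 1488 and 888 in CL. The lowest CL mouse, mouse 2, was still far above every NC mouse. H2-Ab1 rose by 2.53 ± 0.24, H2-Aa by 2.23 ± 0.22 and Ctss, the protease that trims the invariant chain, by 2.28 ± 0.23. Ciita, the coactivator that switches these genes on, rose by 1.00 ± 0.26 (adjusted p = 0.0362), a call lost in 7 of the 10 fits without 1 mouse (adjusted p up to 0.1).

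Class I genes did not pass the test by their brightest probe sets. B2m, H2-K1 and H2-D1, which form the class I molecules of every nucleated cell, differed by -0.15 ± 0.16, 0.02 ± 0.12 and 0.17 ± 0.13 (adjusted p = 0.721, 0.956 and 0.562). Some dimmer probe sets of H2-K1 and H2-D1 passed the test, 1 of 4 and 2 of 9, and these genes are near-identical to their neighbours. The inducible proteasome subunits that feed class I molecules did rise, Psmb9 by 1.95 ± 0.31, Psmb8 by 1.57 ± 0.28 and Psmb10 by 1.05 ± 0.29, whereas none of the 24 measured constitutive proteasome subunits passed the test (3 rose on deposited signals, 2 after quantile normalization, and 3 fell without CL mouse 2). The call of Psmb10 was lost in 9 of the 10 fits without 1 mouse (adjusted p up to 0.115).

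Macrophage genes that are known to mark different states separated the CL mice. Of 10 Kupffer cell markers 5 rose, among them Cd5l (1.84 ± 0.26) and Vsig4 (1.61 ± 0.32), a scavenger-like protein and a complement receptor, and Folr2 (1.33 ± 0.35), a folate receptor whose call was lost in 6 of the 10 fits without 1 mouse (adjusted p up to 0.102). Marco, a scavenger receptor, had signals of 18.3, 69.2, 70.1, 37.4 and 39 in NC and 52.7, 363, 643, 101 and 246 in CL, highest in CL mice 2 and 3. Its rise of 2.24 ± 0.54 (adjusted p = 0.023) was not past the test without NC mouse 1, 4 or 5 or CL mouse 3 or 5. Timd4, a receptor for dying cells on long-resident Kupffer cells, had signals of 10.7, 22.6, 20.7, 26.3 and 14.2 in NC and 16, 92.2, 113, 23.3 and 39.4 in CL. CL mice 2, 3 and 5 lay above all NC mice and CL mice 1 and 4 within their range (adjusted p = 0.127, and 0.0328 without CL mouse 1).

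Cd163, the receptor for haemoglobin bound to haptoglobin, had signals of 48, 125, 80.5, 118 and 108 in NC and 14.7, 126, 153, 14 and 92.6 in CL. CL mice 1 and 4 were the lowest of all 10 and CL mouse 3 the highest, and the difference was -0.81 ± 0.59 (adjusted p = 0.56). Clec4f, a lectin of Kupffer cells, was among the CL mice also lowest in 1 and 4 and highest in 2 and 3, with a difference of 1.07 ± 0.32 (adjusted p = 0.0658, and 0.0401 and 0.0174 without CL mouse 1 and 4).

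Some genes of lipid-associated macrophages were lowest in CL mice 2 and 3. Of 14 measured, 9 rose. Gpnmb, a glycoprotein of lipid-laden macrophages, had signals of 7.94, 17.8, 13, 15.9 and 5.19 in NC and 377, 29.2, 70.3, 470.4 and 365 in CL. All CL mice lay above all NC mice, with mice 1, 4 and 5 several times higher than mice 2 and 3 (difference 3.95 ± 0.77, adjusted p = 0.00583). Trem2, a lipid receptor of these cells, had signals of 1.82, 3.38, 3.85, 2.50 and 1.34 in NC and 73.6, 5.63, 2.14, 63.8 and 68.1 in CL. It was above the array median in CL mice 1, 4 and 5 and in no other mouse, and did not pass the test (adjusted p = 0.0844), but did without CL mouse 2 (0.0412) or without CL mouse 3 (0.0182).

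Mmp12, the elastase of macrophages, had signals of 1.00, 4.57, 2.04, 1.66 and 1.00 in NC and 121, 11, 16, 173 and 157 in CL. It was above the array median in 4 CL mice and no NC mouse, a rise of at least 4.6-fold (adjusted p = 0.00099), again with mice 1, 4 and 5 far above 2 and 3. Itgax, which encodes CD11c, rose by 1.87 ± 0.43 (adjusted p = 0.0177), a call lost without CL mouse 1 or 4 (0.0533 and 0.0527). Cx3cr1, a chemokine receptor of monocyte-derived cells, differed by 1.59 ± 0.55 (adjusted p = 0.131, and 0.0497 without CL mouse 3). Other genes of the list rose in every CL mouse, Lgals3 by 3.06 ± 0.36, Fabp5, a fatty acid carrier, by 1.87 ± 0.31, and Cd9, a tetraspanin, by 1.48 ± 0.18. Plin2, which coats lipid droplets in hepatocytes as well, and Lipa, the lysosomal acid lipase, differed by 0.05 ± 0.15 and -0.03 ± 0.09 (adjusted p = 0.927 and 0.903).

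**Figure D3:**
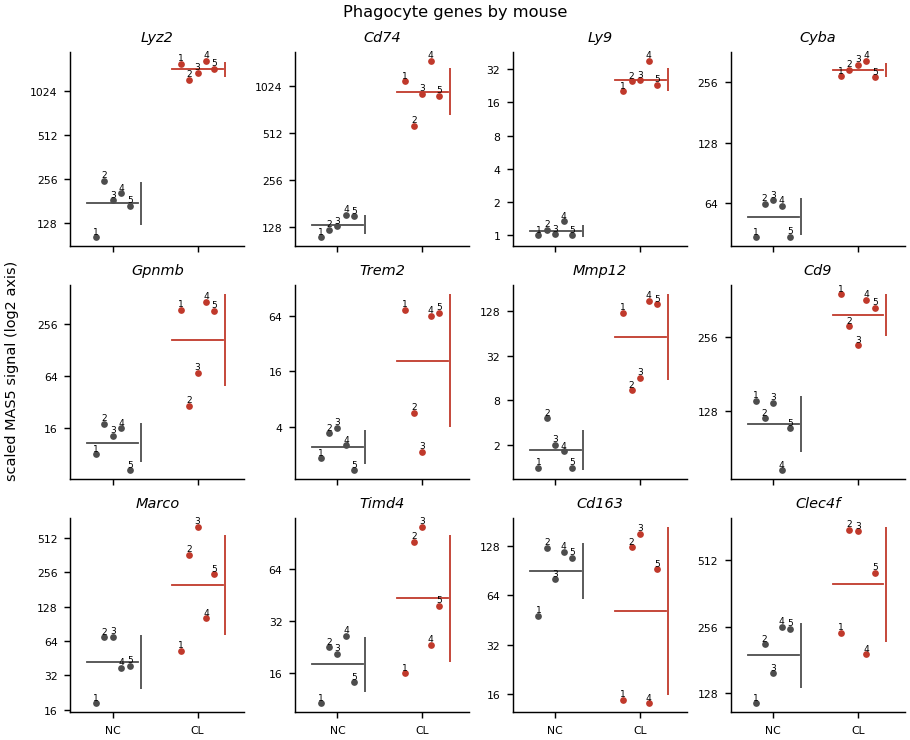
Scaled signals of phagocyte genes in each mouse (log2 axis), drawn as for the sterol genes. Lyz2, Cd74 and Cyba are high in all 5 CL mice, Gpnmb, Trem2 and Mmp12 are highest in CL mice 1, 4 and 5, and Marco, Timd4, Cd163 and Clec4f are highest in CL mice 2 and 3.

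None of 12 measured T cell markers passed the test (median 0.77, with 2 higher past the test on deposited signals) and none of 10 B cell and plasma cell markers (median 0.14). Cd3d, a chain of the T cell receptor complex, differed by 2.17 ± 0.69 (adjusted p = 0.0901), and passed the test without NC mouse 2 or 3 (0.0379 and 0.0435). Cd3e was above the array median in 1 CL mouse and no NC mouse, and Cd4 in no mouse of either group, so a difference in Cd4 was not detectable at these signals. Cd8a, above it in 4 NC and 3 CL mice, differed by 0.16 ± 0.56 (adjusted p = 0.93). Of 9 natural killer cell markers 3 rose, namely Klrd1 (at least 2.21-fold), Nkg7 (at least 1.78-fold) and Klrk1 (1.20 ± 0.33), which cytotoxic T cells also express. Each of these calls was lost in 7 or 8 of the 10 fits without 1 mouse (adjusted p up to 0.12), and 1 marker rose without CL mouse 2.

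Interferon-induced genes, which are switched on by type I interferon or by interferon-γ, rose in part. Of 21 measured, 12 rose and none fell, with a median of 1.09 on the log2 scale. The RefSeq promoters (GRCm38.p6, 250 bases before to 50 after the start) held the interferon response element, TTTC followed after any 2 bases by TTTC and searched on both strands, in 10 of the 17 members that had a promoter in the table. Over all 27025 genes with a promoter the share was 3.99%. The element was in 6 of the 10 members with a promoter that rose, and also in Ifit1, Igtp, Irgm1 and Stat2, which did not pass the test. Stretches of 30 bases are shown on the gene's strand for 5 of the members that rose, with the matches in capitals. Ifih1 also rose, with its match after the start.
Gbp2 (chr3:142620594-142620623, plus strand): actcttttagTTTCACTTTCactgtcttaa
Gbp3 (chr3:142559995-142560024, plus strand): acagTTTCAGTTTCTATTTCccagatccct
Ifit3 (chr19:34583397-34583426, plus strand): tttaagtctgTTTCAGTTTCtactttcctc
Oas1a (chr5:120907526-120907555, minus strand): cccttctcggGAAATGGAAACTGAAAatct
Rsad2 (chr12:26456553-26456582, minus strand): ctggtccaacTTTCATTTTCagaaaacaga
In Oas1a the match reads on the opposite strand, and in Gbp3 and Oas1a overlapping or adjoining matches merge into 1 run. Other motifs were searched in other lists. The sterol regulatory element, TCAC followed after any base by CCAC, was in 1 of 14 cholesterol synthesis genes and 0 of 8 genes around SREBP2 (1.44% of all genes). The FXR repeat, AGGTCA and TGACC with any base between them, was in 0 of 13 bile acid transporters and the LXR repeat, AGGTCA in 2 copies with any 4 bases between them, in 0 of 9 LXR targets (0.0333% and 0.0148% of all genes). The PU.1 site, GAGGAAG, was in 3 of 12 macrophage and monocyte markers, 7 of 15 Fc receptor and phagocyte signalling genes and 3 of 14 cholesterol synthesis genes (15.4% of all genes), and the interferon element in 1 of 12 macrophage and monocyte markers. A match in letters says nothing of whether a factor was bound.

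Gbp2, a guanylate-binding protein of interferon-γ responses, had signals of 25.8, 26.4, 32.9, 33.8 and 36.9 in NC and 83.9, 108, 133, 307 and 106 in CL, a rise of 2.09 ± 0.45 (adjusted p = 0.0122). Gbp3, a relative, had signals of 27.2, 31.9, 23.8, 32.7 and 25.1 in NC and 82, 148, 103, 225 and 53.9 in CL, a rise of 1.96 ± 0.37 (adjusted p = 0.00445). Both were higher in every CL mouse than in any NC mouse and highest in CL mouse 4. Igtp, a GTPase of the same response, had signals of 243, 224, 259, 260.4 and 295 in NC and 554, 1088, 704, 2210.5 and 298 in CL. CL mouse 4 was the highest and mouse 5 barely above the NC mice, and despite groups that did not overlap the difference of 1.60 ± 0.63 did not pass the test (adjusted p = 0.188).

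Ifit2, an antiviral RNA-binding protein, rose by 2.41 ± 0.31 and was above the array median in 1 NC mouse and all CL mice. Oas1a, a sensor of double-stranded RNA, rose by 1.19 ± 0.23, Rsad2, an antiviral enzyme, by 0.76 ± 0.16, Irf8, a transcription factor of myeloid cells, by 1.10 ± 0.24, and Ifih1, another RNA sensor, by 0.58 ± 0.12. Ifit3 rose by 1.02 ± 0.25 (adjusted p = 0.0263), a call lost in 6 of the 10 fits without 1 mouse (adjusted p up to 0.0745). Stat2, a transducer of type I interferon, differed by -0.18 ± 0.18 (adjusted p = 0.708). The macrophage markers stood above NC in the same 5 mice, and their part in the rise was not tested.

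Of 19 measured chemokines 8 rose and none fell. Cxcl9, induced by interferon-γ and drawing T cells, rose by 2.54 ± 0.57, and Cxcl10, of the same group, by 1.54 ± 0.40. Ccl5, made by T cells and natural killer cells, rose by 2.24 ± 0.48, with 3 of 5 NC mice above the array median. Cxcl16, a chemokine that macrophages and endothelium also use as a scavenger receptor, rose by 1.54 ± 0.19. Ccl2, which draws monocytes through CCR2, was above the array median in 4 CL mice, all but mouse 2, and in no NC mouse, a rise of at least 2.26-fold. The calls of Ccl2 and Cxcl10 were lost in 8 and 7 of the 10 fits without 1 mouse (adjusted p up to 0.103 and 0.0919).

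Several collagen genes stood above NC in some CL mice only. Of 15 measured collagen chains 1 rose and 1 fell (3.56% and 3.28% over all genes), with a median of 0.56. Without CL mouse 2 the counts were 4 and 1 and the median 0.94. Col3a1, a chain of fibrillar collagen, had signals of 138, 172, 366, 241 and 81.1 in NC and 770.0, 89.1, 199.6, 735 and 522 in CL. CL mice 1, 4 and 5 lay above all NC mice, mouse 3 within the NC range and mouse 2 near its bottom, and the difference was 0.99 ± 0.53 (adjusted p = 0.381). Col1a2 and Col1a1, the chains of type I collagen, were also lowest in CL mouse 2 and next lowest in mouse 3, with differences of 0.83 ± 0.47 and 0.50 ± 0.65 (adjusted p = 0.412 and 0.788). Col4a1, a chain of basement membranes, differed by 0.71 ± 0.27 (adjusted p = 0.168), and by 0.94 without CL mouse 2 (adjusted p = 0.0218).

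Col14a1, a fibril-associated collagen of portal fibroblasts, had signals of 106, 122, 109, 141 and 120.5 in NC and 375, 161, 240.2, 273 and 259 in CL. It was above NC in every CL mouse, least in mouse 2, and rose by 1.08 ± 0.17 (adjusted p = 0.000987). Col18a1, the source of endostatin and a collagen that hepatocytes themselves express, had signals of 1186, 1421, 1206, 1145 and 1161 in NC and 1014, 749, 1073, 785 and 1015 in CL, a fall of -0.41 ± 0.11 (adjusted p = 0.0452). Its groups did not overlap, but the call was lost in 7 of the 10 fits without 1 mouse (adjusted p up to 0.122).

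Of 17 stellate cell and myofibroblast genes 2 rose (3.56% over all genes), and 5 without CL mouse 2. Vim, the vimentin of mesenchymal cells and leukocytes, had signals of 122, 135, 98.9, 196 and 82 in NC and 529, 157, 266, 469.6 and 378 in CL. All CL mice but mouse 2 lay above NC (difference 1.44 ± 0.30, adjusted p = 0.0102). Hand2, a transcription factor of quiescent stellate cells, rose by 0.73 ± 0.20, a call lost in 7 of the 10 fits without 1 mouse (adjusted p up to 0.126), and Acta2, the smooth muscle actin of activated ones, differed by 0.42 ± 0.30 (adjusted p = 0.544). Timp1, the inhibitor of matrix proteases, did not overlap between groups but did not pass the test (1.87 ± 0.58, adjusted p = 0.0783).

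Beside Mmp12, of 15 matrix metalloproteinase and inhibitor genes Mmp7 (1.26 ± 0.33) and Adam8 (2.21 ± 0.57), a protease of leukocytes, rose, each with a call lost in 5 or 6 of the fits without 1 mouse. Bile duct and progenitor markers were uneven as well. Of 11, Krt23 (2.11 ± 0.25), a keratin of injured liver, and Krt8 (0.58 ± 0.12), the keratin of hepatocytes and ducts, rose in every CL mouse, whereas Epcam and Krt19, which define duct cells, differed by 1.13 ± 0.90 and -0.20 ± 0.47 (adjusted p = 0.604 and 0.893). Epcam was lowest of all 10 mice in CL mouse 2 and highest in CL mouse 1. Of 16 annexin and S100 genes 7 rose, among them Anxa2 (2.08 ± 0.19) and Anxa5 (0.89 ± 0.17), and of 17 cytoskeleton and epithelial injury genes 9, among them the actin-binding Tmsb10 (1.52 ± 0.20) and Tmsb4x (1.53 ± 0.20). With the mean over all probe sets of a gene these counts were 3 and 7.

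Of 23 cell cycle genes 3 rose, Birc5, Ccnd1 and Mcm3 (3.56% over all genes), and 7 rose on deposited signals, where 1050 of 18193 genes rose. Birc5, a mitotic survivin, was above the array median in 4 CL mice and no NC mouse and no fold is given for it. Ccnd1 (1.26 ± 0.31), the G1 cyclin, and Mcm3 (0.83 ± 0.23), a replication helicase subunit, lost their calls in 7 and 9 of the 10 fits without 1 mouse. Mki67, the proliferation marker, differed by 2.15 ± 0.69 (adjusted p = 0.097, and 0.0455 without NC mouse 3).

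Hepatocyte genes were slightly lower in CL, in direction only on scaled values. The median of 13 hepatocyte markers was -0.28 on scaled signals, 0.01 after quantile normalization and 0.03 on deposited signals, and only Tat, the tyrosine aminotransferase, passed the test (-1.07 ± 0.24, adjusted p = 0.0167, and 0.0503 without NC mouse 2). Without CL mouse 2, 6 of the markers fell, as did 1198 of all 18193 genes. Alb had signals of 10050.5, 12256, 9791, 9585 and 10277 in NC and 6212, 11573, 7884, 6779 and 8427 in CL. CL mice 1, 3, 4 and 5 lay below all NC mice and CL mouse 2 was the second highest of the 10 (difference -0.38 ± 0.18, adjusted p = 0.307, and 0.0254 without CL mouse 2). Cps1, the first enzyme of the urea cycle, differed by -0.40 ± 0.16 (adjusted p = 0.201, and 0.0363 without CL mouse 2).

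Of 20 urea cycle and amino acid genes 3 fell and none rose. Without CL mouse 2, 11 fell and 1 rose, and on deposited signals 0 fell and 1 rose. Got1, the cytosolic aspartate aminotransferase, had signals of 2798, 4404, 2900.4, 3283 and 1879 in NC and 422, 2907, 2083, 901 and 558 in CL. CL mice 1, 4 and 5 lay far below NC and mice 2 and 3 within the NC range, and the fall of -1.48 ± 0.41 (adjusted p = 0.0499) was kept in 2 of the 10 fits without 1 mouse, those without CL mouse 2 or 3. Nags, which makes the activator of the urea cycle, fell by 0.63 ± 0.16 (call lost in 6 of those fits), and Asl, argininosuccinate lyase, differed by -0.80 ± 0.24 (adjusted p = 0.0758, and 0.005 without CL mouse 2).

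Respiratory chain genes also differed between CL mouse 2 and the others. All 24 measured had a difference below 0 on scaled signals with a median of -0.30. On deposited signals the median was 0.02 and none passed the test. On scaled signals 2 fell (3.28% over all genes), or 15 without CL mouse 2. Sdha, a subunit of complex II, had signals of 1850.1, 1950.4, 1959, 1612 and 1658 in NC and 1338, 1208, 1427, 1064 and 1205 in CL and was lower in every CL mouse (difference -0.53 ± 0.10, adjusted p = 0.00441). Ndufs1, of complex I, fell by 0.44 ± 0.11, a call lost without NC mouse 3 or CL mouse 4 or 5 (adjusted p up to 0.0631). Cox4i1, of complex IV, was highest of all 10 mice in CL mouse 2 and below all NC mice in the other four (difference -0.30 ± 0.16, adjusted p = 0.393, and 0.0148 without CL mouse 2). Ndufb8 likewise was highest in CL mouse 2, with a difference of -0.05 ± 0.20 (adjusted p = 0.943).

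Complement and coagulation proteins made by hepatocytes showed 6 falls and no rise among 24, with a median of -0.30 on scaled and 0.02 on deposited signals, where none passed the test. After quantile normalization 2 fell, and 12 did without CL mouse 2. The falls included Hc (-0.51 ± 0.12), C8a (-0.61 ± 0.14) and C8b (-0.65 ± 0.17), all of the membrane attack complex, and F5 (-0.49 ± 0.11), a clotting cofactor. The call of C8a was lost without NC mouse 2 (adjusted p = 0.0506) and that of C8b in 7 of the 10 fits without 1 mouse. Mbl2, a lectin of the complement system, differed by 0.00 ± 0.12 (adjusted p = 1). Macrophage markers stood 1.58 to 2.39 above NC in the same CL mice, and their part in these small falls was not tested.

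**Figure D4:**
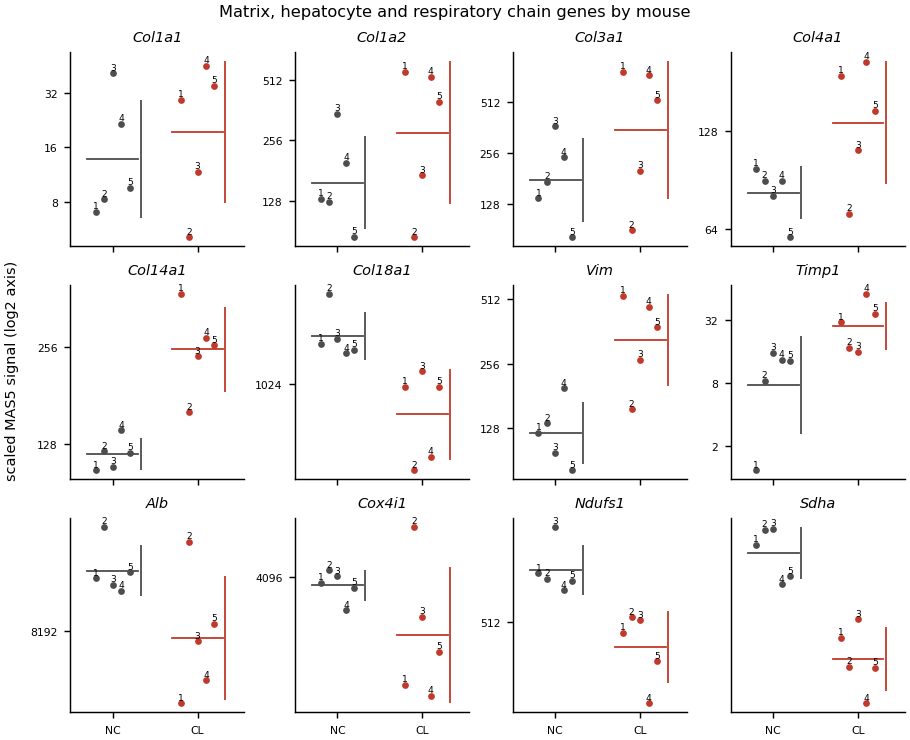
Scaled signals of matrix, hepatocyte and respiratory chain genes in each mouse (log2 axis), drawn as for the sterol genes. CL mouse 2 is the lowest CL mouse for Col1a2 and Col3a1, near the lowest NC mouse, and the highest CL mouse for Alb and Cox4i1, whereas Sdha and Col18a1 are below NC and Col14a1 above NC in all 5 CL mice.

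Of 18 genes of the insulin, IGF and growth hormone axis 4 fell and 1 rose, with a median of -0.27. On deposited signals 1 fell and 1 rose with a median of 0.05. Insr, the insulin receptor, had signals of 523, 527, 522, 502 and 531 in NC and 314, 262, 298, 302 and 309.6 in CL. Both groups were narrow and did not overlap, and the fall of -0.81 ± 0.07 held in every fit without 1 mouse (adjusted p = 2.16e-05), by the brightest of 3 probe sets, the other two of which did not pass the test. Igfals, which holds IGF in the blood, fell by 0.97 ± 0.17 and Ghr, the growth hormone receptor that drives it, by 0.65 ± 0.16, a call lost without NC mouse 1, 2 or 3 (adjusted p up to 0.0676). Igfbp3, an IGF carrier made by non-parenchymal cells, rose by 0.99 ± 0.21. Ppargc1a, the coactivator of gluconeogenesis and mitochondrial genes, had signals of 243, 199, 194, 128 and 171 in NC and 79, 50.4, 96.8, 59.2 and 90.4 in CL, lower in every CL mouse, with all 5 probe sets past the test (difference -1.33 ± 0.19, adjusted p = 0.000616). Its relative Ppargc1b fell by 1.01 ± 0.14.

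Of 17 hepatocyte transcription factors 5 fell and none rose, with 3 falls after quantile normalization and none past the test on deposited signals. Cebpa (-0.53 ± 0.10), a factor of hepatocyte differentiation, and Ppara (-0.61 ± 0.10), the receptor that drives fatty acid oxidation, fell in all 10 fits without 1 mouse, and all 3 probe sets of Ppara passed the test. Hnf4a (-0.56 ± 0.14), Foxa3 (-0.56 ± 0.15) and Rxra (-0.41 ± 0.10), the shared partner of LXR, FXR and PPARα, lost their calls in 6 of those fits each (adjusted p up to 0.0927, 0.127 and 0.078). In the fatty acid oxidation list, whose median was -0.37 on scaled and -0.05 on deposited signals, 5 of 20 fell and 14 did without CL mouse 2, and 2 on deposited signals. Cpt1a, the gate of mitochondrial oxidation, fell by 0.59 ± 0.11 and Hadha, of the trifunctional protein, by 0.55 ± 0.09.

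Fat synthesis and storage genes were divided, and the medians of the lists for synthesis, droplets and apolipoproteins were -0.28, -0.12 and -0.28 on scaled and 0.04, 0.20 and 0.04 on deposited signals. Acacb, which makes the inhibitor of CPT1A, fell by 1.31 ± 0.26, while Fasn, the fatty acid synthase, and Scd1, the stearoyl desaturase, differed by 0.41 ± 0.30 and 0.51 ± 0.16 (adjusted p = 0.561 and 0.0885, the latter 0.0397 without NC mouse 3). G0s2, the inhibitor of the lipase that opens lipid droplets, had signals of 1931, 2647, 2854, 2390.2 and 1987 in NC and 657, 1413, 1523, 1051 and 618 in CL, a fall of -1.25 ± 0.24 (adjusted p = 0.00638) with all CL mice below NC and mice 1 and 5 lowest. Fitm2, which buds droplets from the endoplasmic reticulum, fell by 0.86 ± 0.13, and Plin3, a droplet coat protein, rose by 0.43 ± 0.11, a call lost in 4 of the 10 fits without 1 mouse. Among apolipoproteins, Apoa4 (1.49 ± 0.26), which rises with liver fat, and Apoc2 (0.80 ± 0.12), the cofactor of lipoprotein lipase, rose. Apom (-0.66 ± 0.14) and Lcat (-0.45 ± 0.12), both of high-density lipoprotein, fell, the latter with a call lost in 8 of those fits, and Apob did not pass the test (-0.42 ± 0.14, adjusted p = 0.105, and 0.0465 without CL mouse 2).

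Retinoid and metal genes held some of the larger falls, with list medians of -0.09 and -0.13 on scaled and 0.22 and 0.19 on deposited signals. Cyp26a1, which clears retinoic acid and is induced by it, had signals of 89.9, 109, 231, 69.9 and 126 in NC and 28.2, 17.2, 48.9, 24.1 and 45.5 in CL, a fall of -1.92 ± 0.31 (adjusted p = 0.0015) with no overlap. Rdh16, a retinol dehydrogenase, fell by 0.83 ± 0.16 and Aldh1a1, a retinal dehydrogenase, by 0.57 ± 0.14, a call lost without NC mouse 1, 2 or 3. Lrat, which esterifies retinol in stellate cells, and the carotenoid cleavage enzymes Bco1 and Bco2 differed by 0.32 ± 0.17, -0.09 ± 0.18 and -0.07 ± 0.17 (adjusted p = 0.371, 0.861 and 0.89).

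Mt2, a metallothionein that binds zinc and follows zinc and glucocorticoid, had signals of 850.0, 3725, 1013, 3309.5 and 749 in NC and 285, 399, 314, 416 and 465 in CL. NC mice 2 and 4 were several times above the other NC mice, the CL mice lay together below all of them, and the fall of -2.03 ± 0.52 (adjusted p = 0.0333) was not past the test in 6 of the 10 fits without 1 mouse (adjusted p up to 0.0962). Mt1 fell by 1.72 ± 0.39 and held in all of them. Tfr2, the iron-sensing receptor of hepatocytes, fell by 0.59 ± 0.11 and Steap4, a metalloreductase induced in inflammation, rose by 1.40 ± 0.28. Among clock genes, the output factors Tef (-0.75 ± 0.11) and Hlf (-0.86 ± 0.16) fell and Npas2, of the positive arm, rose at least 1.93-fold. Of 9 female-biased genes 2 fell, among them Cyp17a1, a steroid hydroxylase, by 1.18 ± 0.30 (call lost in 6 of the 10 fits without 1 mouse). Of 9 male-biased genes 2 fell as well, and the medians of the female-biased and male-biased lists were -0.25 and -0.29.

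Among genes chosen as bright in NC, CL mice varied more among themselves than NC mice. Over 9721 genes at or above the array median on all NC arrays, the median SD on the log2 scale was 0.196 in NC and 0.288 in CL. Of these genes 71.6% had the larger SD in CL. The choice set no condition on CL signals, so it favours a larger SD in CL, and its part was not tested. Without CL mouse 2 the median SD in CL was 0.221, and without any other single CL mouse 0.281 to 0.304. Of the 648 genes called higher, CL mouse 2 was within or below the NC range in 59 and the other CL mice in 15 to 29 each. Of the 596 called lower, CL mouse 2 was within or above it in 93 and the others in 12 to 35 each. CL mouse 2 was the least changed mouse for 39.2% of the called rises and 34.7% of the called falls. Without that mouse 1988 genes passed the test, 790 higher and 1198 lower, in place of 1244, and these held 94.1% of the genes called with all mice.

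The lists fell into those alike in all 5 CL mice and those that were not. Mean differences from NC in CL mice 1 to 5 were -0.77, -0.80, -0.81, -0.94 and -0.95 for cholesterol synthesis and 0.64, 0.64, 0.77, 0.51 and 0.67 for LXR targets, on the log2 scale. MHC class II genes were at 1.99, 1.49, 1.86, 2.50 and 1.82. These 3 lists kept their direction in every CL mouse, with NC mice at -0.32 to 0.32, -0.11 to 0.14 and -0.43 to 0.31.

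Collagen chains, by contrast, were at 1.05, -0.45, 0.17, 1.15 and 0.82 in CL mice 1 to 5 against -0.44 to 0.49 in NC. Lipid-associated macrophage genes were at 2.06, 0.90, 0.94, 2.08 and 2.12, lowest in mice 2 and 3. Kupffer cell markers were at 0.22, 1.69, 1.69, 0.20 and 1.12, lowest in mice 1 and 4. Bile acid synthesis was at -0.60, 0.25, -0.25, -0.78 and -0.58 and hepatocyte markers at -0.57, 0.05, -0.09, -0.65 and -0.31, both highest in mouse 2. Cytosolic ribosomal proteins, a group of no particular cell type, were at -0.49, 0.46, -0.15, -0.34 and -0.28 against -0.11 to 0.09 in NC, so mouse 2 stood apart in these genes too. Its beta-actin 3′ to 5′ difference, a sign of RNA quality, was 0.85 on the log2 scale, with the other CL mice at 0.70 to 0.95. Its GAPDH difference of the same kind was -0.530, with the other CL mice at -0.532 to -0.288 and the NC mice at -0.476 to -0.323. What set mouse 2 apart was not tested.

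**Figure D5:**
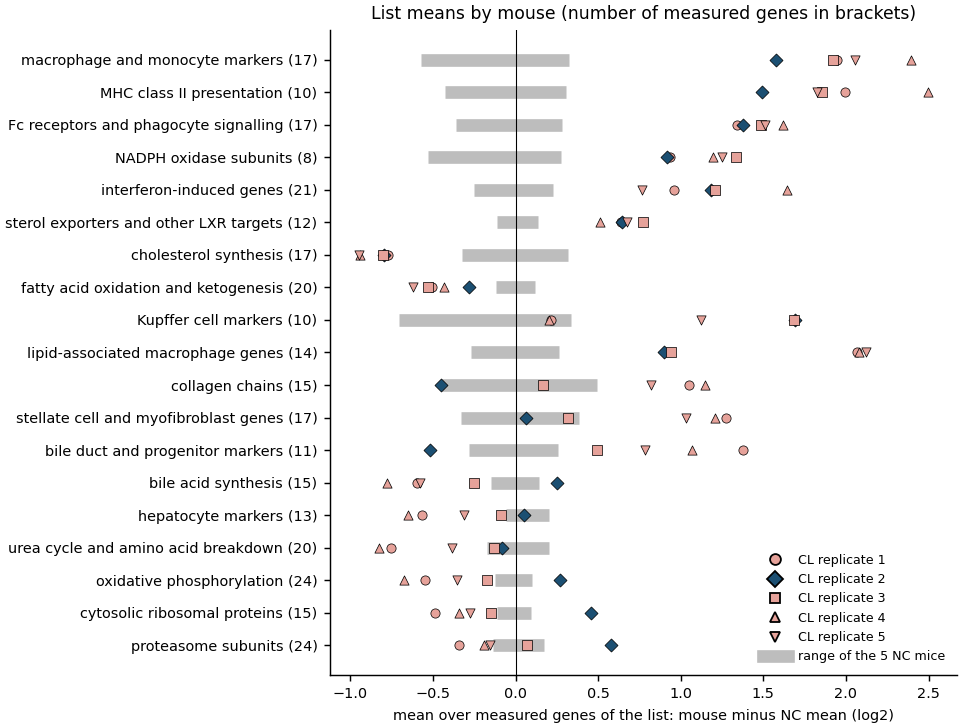
Mean log2 difference of each gene list from the NC mean for the 5 CL mice, with CL mouse 2 as a dark diamond and the range of the NC mice as a grey bar. For cholesterol synthesis, LXR targets and MHC class II genes the 5 mice lie together outside the NC range, whereas for collagen chains, bile acid synthesis and hepatocyte markers CL mouse 2 lies apart from CL mice 1, 4 and 5.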

How the data were processed

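Liver RNA of 15 mice was measured on 15 GeneChip Mouse Genome 430 2.0 arrays, 1 for each mouse, and the deposited values were MAS5 signal intensity on a linear scale, which the authors made from the scanned arrays with the Affymetrix software. The paper's scaling to the 75th percentile and its filter on detection calls were not part of the deposited values. Arrays were therefore scaled to a common 75th percentile of 54.1, signals under 1 were raised to 1 (11.3% of values), and log2 was taken. Control probe sets were left out, which left 45037. Of these 34945 had 1 gene symbol in the platform annotation, 932 several and 9160 none, and a gene was read by its probe set with the highest mean signal (18193 genes). No counts or depths exist for arrays, and the number of mice limits the precision.

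CL was compared with NC with limma 3.58.1 in R 4.3.3 in a fit of the means of all 3 diets, in which the mice given β-cryptoxanthin added only to the estimate of the spread, with a trend of variance on signal and Benjamini-Hochberg adjustment at 0.05 over all probe sets. The fit was also run on simulated data, whose outcome is not reported here and is not used as support for any result. P-values measure the spread between mice, whose cages were shared. A group below the array median on all 5 arrays gave a bound, "at least", against the higher of the array median and its own signals, and such a gene has no fold where the bound was under 1. Named were the 15 largest rises and falls past the test without overlap and with at least 1 group at or above the array median on all arrays, and from each list up to 6 members past the test and up to 4 others, by signal or as defining markers. Members and lists were chosen with earlier results of these data known, so lists are given by counts and medians, and list means by mouse carry no test. The labels do not say whether replicate numbers mark a shared cage or batch, and mice were not paired by them. Some list entries had no probe set of a single gene and are not reported here.

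Alternatives were filters on dim probe sets, deposited or quantile-normalized signals, an offset in place of the floor, other variance priors, NC and CL arrays alone, the study's own test, the replicate number as a block, a beta-actin covariate, the mean of a gene's probe sets, and leaving out each mouse. Promoters were RefSeq sequences of GRCm38.p6. Tables were made with Python 3.11.15, numpy 2.4.6 and pandas 2.3.3 and plots with matplotlib 3.10.9.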

Additional observations from a re-analysis of the deposited data

Results flagged for a closer look

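Within groups of 5 mice, a mouse was set apart when its gap to the nearest mouse was over 0.71 of the group's range (Dixon's critical value), which chance alone gives in about 1 of 20 groups, and 11 values of 214 groups met this. CL mouse 2 had the lowest mean correlation with its group (0.936, the nearest at 0.953). It also had the highest root mean square deviation from the mean of the other mice of its group (0.696 on the log2 scale, the nearest at 0.489). Both were taken over probe sets whose mean signal was at or above the median. The same mouse had the highest mean of the apolipoprotein list (0.33 on the log2 scale, the nearest at -0.07) and the lowest signal of Insr among CL mice (262, the nearest at 298). CL mouse 5 had the highest mean of the retinoid list in CL (-0.054, the nearest at -0.26).

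In NC, mouse 2 had the highest means of the hepatocyte markers (0.20, the nearest at -0.04) and of the complement and coagulation list (0.17, the nearest at -0.03). It also had the highest NC signals of Alb (12260) and of Col18a1 (1421), whose other values are given above. NC mouse 1 had the lowest means of the NADPH oxidase subunits (-0.53, the nearest at 0.04) and of the glycolysis and gluconeogenesis list (-0.20, the nearest at 0.01). No difference of these mice in diet or handling is in the labels.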

How the results depend on the processing

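The counts of 2082 probe sets and 1244 genes past the test were within 1.5 times of the reported ones under the filters on dim probe sets (2721 and 1628 with the filter by group), deposited signals, quantile normalization, the offset, the robust prior and, for genes, the mean over probe sets. They were 1127 and 657 without the variance trend, 1366 and 827 with only NC and CL arrays, 642 and 404 with Welch's ANOVA and Tukey's test, and 878 and 543 with the beta-actin covariate. Leaving out 1 NC mouse gave 1421 to 1817 probe sets and 838 to 1094 genes, and leaving out 1 CL mouse gave 1495 to 3324 and 893 to 1988. The highest of these came without CL mouse 2, and the other CL mice gave at most 1741 and 1013. The cause of these differences was not tested. The fits of only NC and CL arrays and those without 1 mouse also had fewer arrays. On deposited signals 96.0% of the called probe sets were higher (97.4% of genes) in place of 50.5% (52.1%), with quantile normalization 58.7% (60.7%), and without CL mouse 2 it was 39.8%.

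Of 182 named genes past the test 131 passed it in all 10 fits without 1 mouse. None changed direction and 62 passed in every setting that tested their brightest probe set, which leaves out the mean over probe sets. With that mean 1040 genes passed, and these held 65.7% of the genes called by the brightest probe set. Of 745 called genes with several probe sets, 250 had 2 or more of them past the test. The list medians moved by over 1 SD of the CL mice in 35 of 65 lists on deposited signals, which follow the shift of all genes, in 8 after quantile normalization, in 4 with the mean over probe sets and in 1 without CL mouse 2.

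With the replicate number as a block 1816 probe sets and 1090 genes passed the test. Deviations of mice with the same number correlated between the groups at 0.12, -2.08e-05, 0.03, 0.08 and -0.01, and those of other pairs at -0.11 to 0.08. Single lists could still run alike by number. Heat shock list means in mice 1 to 5 were 0.48, 0.46, -0.36, -0.37 and -0.21 in NC and 0.52, 0.26, -0.32, 0.00 and -0.35 in CL. Other lists were not compared in this way, and whether the numbers mark a shared handling was not tested.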

Other observations

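Adhesion and cytoskeletal proteins of leukocytes rose along with the phagocyte markers. Of 17 measured adhesion genes 10 rose, among them Itgb2 (2.18 ± 0.29 on the log2 scale) and Itgal (1.71 ± 0.24), both integrin chains, Cd44 (2.11 ± 0.22), the hyaluronan receptor, and Cd53 (2.29 ± 0.21), a tetraspanin. The endothelial ligands Vcam1 (1.68 ± 0.22) and Icam1 (1.12 ± 0.17) rose as well, whereas none of 14 sinusoidal endothelial markers passed the test. Of 16 genes of inflammasomes and regulated cell death 8 rose, among them Pycard (1.97 ± 0.23), the adaptor that gathers caspase-1, Casp1 (1.40 ± 0.21) itself, Casp4 (1.53 ± 0.29), the sensor of bacterial lipopolysaccharide, and Mlkl (1.87 ± 0.38), the executor of necroptosis. Gsdmd (0.65 ± 0.16), Casp12 (1.10 ± 0.29) and Bcl2 (2.22 ± 0.55) lost their calls in 4, 6 and 5 of the 10 fits without 1 mouse. With the mean over all probe sets of a gene, 8 adhesion genes and 6 genes of inflammasomes and regulated cell death rose. Macrophage markers rose in the same mice, and their part in these rises was not tested.

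Lysosomal genes rose in 8 and fell in 1 of 21, in 8 and 4 without CL mouse 2 and in 10 and 0 on deposited signals. With the mean over all probe sets of a gene 4 rose and 1 fell. The fall was in Npc1 (-0.60 ± 0.10), the membrane protein that hands cholesterol out of the lysosome, while Npc2 (0.59 ± 0.10), its soluble partner, rose, and Laptm5 (1.62 ± 0.22) and Lgmn (1.55 ± 0.19) rose most after Ctss. Receptors of cytokines that rose were Csf2ra (1.46 ± 0.28) and Csf2rb (1.50 ± 0.27), chains of the receptor for GM-CSF, and Ifngr1 (0.64 ± 0.10), a chain of the interferon-γ receptor. Of 15 glycolysis and gluconeogenesis genes, Hk3 (2.11 ± 0.29) and Pkm (1.51 ± 0.30), forms found in leukocytes, rose and Pck1 (-0.51 ± 0.12) and Gys2 (-0.68 ± 0.14), forms of the hepatocyte, fell, the call of Pck1 being lost in 5 of the 10 fits without 1 mouse. On deposited signals 4 of these genes rose and 0 fell. Of 23 glutathione, glucuronide and sulfate transferases 3 rose and 1 fell, with a median of -0.01. Gstm3 (2.60 ± 0.54) and Gsta4 (1.07 ± 0.24), glutathione transferases, were among the rises. Of 17 NRF2 targets and antioxidant enzymes 2 rose and 2 fell, also with a median of -0.01. Hmox1 (1.21 ± 0.21), haem oxygenase, and Srxn1 (0.67 ± 0.12), an NRF2 target, rose. On deposited signals 5 of the transferases and 4 of the NRF2 and antioxidant genes rose, and 0 of either list fell. No gene passed the test among 19 drug-metabolising P450 genes, 10 neutrophil markers or 9 dendritic cell markers, and without CL mouse 2 there were 4 lower P450 genes and 1 higher dendritic cell marker.

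Single genes of other lists were past the test. Klf6 (1.92 ± 0.23), an early response factor, and Ccng1 (0.82 ± 0.12), a p53 target, rose, and Hspd1 (-0.49 ± 0.11), the mitochondrial chaperonin, fell. Saa3 (1.83 ± 0.49), an acute phase protein of macrophages and fat, and Fabp4 (0.97 ± 0.23), a lipid carrier of adipocytes, macrophages and endothelium, rose, and Itih4 (-0.57 ± 0.15), an acute phase protein of hepatocytes, fell, with calls lost in 8, 5 and 7 of the fits without 1 mouse.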
